A study of Mus musculus with 22 samples.

Results

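The comparison described here sets 2 ways of lowering Otx2 side by side in the choroid plexus of the fourth ventricle (4V ChP) of the mouse. It is a difference of differences: the change between pools labelled Cre-Tat and pools labelled vehicle, minus the change between pools labelled Otx2 (+/-) and pools labelled WT. It takes 12 of the 22 samples of the series, which are 8 of its 14 pools of RNA, 2 pools (A and B) in each of the 4 groups. The mice were aged 3 months, at injection in the conditional model and when the ChP was taken in the constitutive model.

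In the conditional model, Otx2 lox/lox mice of the strain labelled S129 were injected in both lateral ventricles with Cre-Tat, a recombinase protein joined to a peptide that carries it into cells, or with vehicle, and their ChP was taken 15 days later. All mice of this model, controls included, carried the floxed allele and underwent surgery. No promoter restricted the recombinase to a cell type. Each Cre-Tat pool came from 5 mice and each vehicle pool from 4. In the constitutive model, uninjected mice of the strain labelled B6D2 carried 1 Otx2 allele replaced by GFP (Otx2+/GFP, labelled Otx2 (+/-)) in every cell from conception, and were compared with WT littermates. The ChP of 4 heterozygous and 5 WT mice was pooled, and the sources used here do not say whether the duplicates A and B of this model came from separate mice. Strain, surgery, sequencing run, age when the ChP was taken and the level of Y transcripts (given below) differ between the models. These and the manner of Otx2 loss therefore cannot be told apart.

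The ChP is an epithelium that secretes cerebrospinal fluid (CSF), closes the barrier between blood and CSF, and releases carriers and growth factors into the fluid. Otx2 is a homeodomain transcription factor that the ChP needs to form and keeps expressing in the adult. A conditional deletion removes it from a mature tissue for a short time, whereas a heterozygote develops and ages with a single working copy.

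In both models the main transcript of Otx2 had more counts under the knockdown label than under the control label, as described below. The study read the knockdown on exon 2, which cannot be counted apart in these counts per transcript, so that the whole-transcript count does not check the deletion. Every direction here is therefore given as one between labelled pools. Transcripts of the Y chromosome were nearly absent from the constitutive pools, with 5 to 8 counts per pool over all Y genes, although the study's methods give a mix of both sexes. The conditional pools had 2294 counts (Cre-Tat A), 544 (Cre-Tat B), 2225 (vehicle A) and 1706 (vehicle B). Cre-Tat pool B thus stood below the other conditional pools, and the constitutive pools below all of them. Xist, transcribed from the inactive X chromosome, was lower in the constitutive pools too, with 2673 to 3265 normalized counts against 6505 to 12984 in the conditional pools. The sexes in the pools were not determined. Summed over transcripts, the conditional pools held 22750019 to 39070251 counts and the constitutive pools 36934922 to 42182219, and these totals bound the counting error alone. With 2 pools in a group, the p values measure only the spread between these pools, shared across genes.

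Across 15314 genes tested, 247 (1.61%) differed in their response between the models at an adjusted p of 0.05, and 1983 at an unadjusted p of 0.05 (quasi-likelihood test in edgeR, Benjamini-Hochberg adjusted, as for every adjusted p below). The difference was above 0, toward higher in the Cre-Tat response, for 120 genes (0.784% of those tested) and below 0 for 127 (0.829%). In the same fit 1352 genes (8.83%) changed between the pools labelled Cre-Tat and vehicle, 694 higher (4.53%) and 658 lower (4.3%). In 49.9% of all genes the Cre-Tat and vehicle pools did not overlap, and in 48.4% the Otx2 (+/-) and WT pools did not. Between the pools labelled Otx2 (+/-) and WT 710 genes (4.64%) changed, 369 higher (2.41%) and 341 lower (2.23%). With library totals in place of TMM scaling, the median of all genes moved by 0.15 in the Cre-Tat response and 0.12 in the difference on the log2 scale. The split was then 166 above 0 and 93 below 0 for the difference, and 1093 higher and 335 lower for the Cre-Tat response. Leaving out vehicle pool A or B left 83 or 80 genes on the difference, and leaving out WT pool B left 139.

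Most of the 247 genes passed the threshold in 1 response alone: 124 in the Cre-Tat response and 72 in the heterozygote response. A further 32 changed in both models in the same direction but by unequal amounts, of which 28 had a difference above 0 and 4 below. Opposite directions were found for 17 genes, of which 16 were higher with the label Otx2 (+/-) and lower with the label Cre-Tat. The last 2, Mmd and Plbd1, passed in neither response. The threshold fell between Thsd7b, with a log2 difference of -1.19 (adjusted p = 0.0498), and Ddo, with -0.72 (adjusted p = 0.05001). Exact two-sided permutation within each model has 36 arrangements and cannot go below p = 0.0556 for a single gene. With each of the 8 pools left out in turn, 59 of the 247 genes passed every time.

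**Figure D1:**
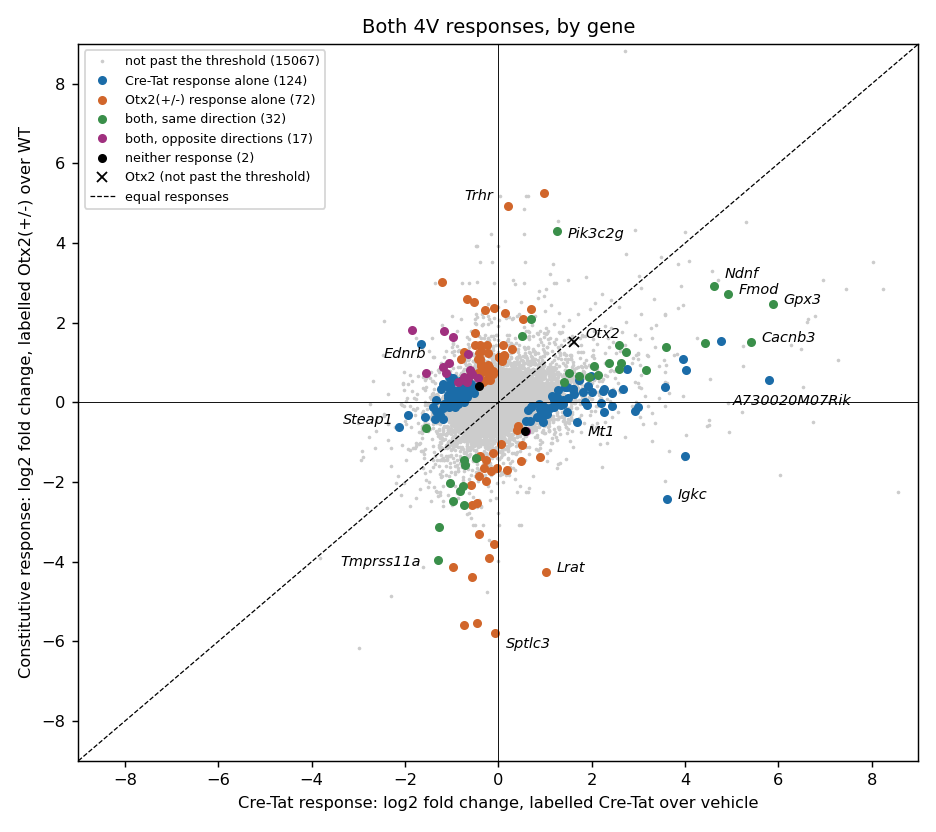
Log2 fold change of every gene tested between the pools labelled Cre-Tat and vehicle (x axis) and between those labelled Otx2 (+/-) and WT (y axis). Grey points are the genes that did not pass on the difference, coloured points the 247 that did, by response, and the dashed line marks equal responses; many coloured points lie along an axis, where 1 response is near 0.

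The genes shared by the models and those in which they differed come from separate tests, and which set was larger depended on the processing. By DESeq2's Wald test 345 genes were shared in the same direction and 374 differed, and with no filter 485 and 626. A gene not called on the difference is not thereby shown to respond alike. Of the genes called, 314 passed in both responses, 23.2% of those of the Cre-Tat response and 44.2% of those of the heterozygote response. Of these, 297 moved in the same direction, 136 up and 161 down, and 265 of them did not pass on the difference. Across all genes the 2 responses had a Pearson r of 0.33, and across the 314 genes one of 0.82. This describes genes that are not independent of each other, in models that share no pools.

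Otx2 itself (ENSMUSG00000021848; GRCm38 chromosome 14, 48657677 to 48673819, minus strand) was in this shared set. On its main transcript, Otx2-201, it had 20529 and 20771 normalized counts in Cre-Tat pools A and B and 6609.7 and 6740.6 in the vehicle pools. It had 17476 and 14957 in the pools labelled Otx2 (+/-) and 6098.2 and 5150.7 in the WT pools. Here and below, a normalized count is a read count adjusted for the effective size of its library (TMM scaling), on the average scale of the 8 pools. In both models the pools labelled as knockdown were the higher ones, and the groups did not overlap. The log2 fold changes were 1.63 and 1.53, and the difference was 0.10 (standard error 0.19, 95% interval -0.31 to 0.52, adjusted p = 0.87).

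Of the 8 Otx2 transcripts, 3 differed between the models and 5 did not pass on the difference. Otx2-201 has 4 exons, and the deposited counts hold 8 Otx2 transcripts that overlap it in different parts. Since a read can be counted on every transcript that it overlaps, their values are not independent. Otx2-206, a transcript of 3 exons annotated as a processed transcript, holds none of the 216 bases of exon 2 of Otx2-201, all 152 of exon 3, and 411 of the 1648 bases of the terminal exon. It had 3057 and 2940 normalized counts in Cre-Tat pools A and B and 1456 and 1234 in the vehicle pools. It had 819 and 615 in the pools labelled Otx2 (+/-), against 1118 and 943 in the WT pools. It was thus higher in the Cre-Tat pools, while the pools labelled Otx2 (+/-) lay below the WT pools, with no overlap in either model. The log2 fold changes were 1.16 and -0.52, and only the first passed the threshold (adjusted p = 0.0001 and 0.066). The difference was 1.68 (standard error 0.21, adjusted p = 0.00051 among 53449 transcripts tested, of which 1.11% passed). Over all transcripts 6.97% passed in the Cre-Tat response and 3.79% in the heterozygote response.

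Otx2-203 and Otx2-208 also differed, by 1.04 (adjusted p = 0.012) and 0.83 (adjusted p = 0.038). Otx2-203 holds 43 bases of exon 3 and no base of the terminal exon, and Otx2-208 holds 374 of its bases. In the heterozygote response their log2 fold changes were 0.67 and 0.76, against 1.54 for Otx2-201, which holds the whole terminal exon. The other 4 transcripts had fold changes of 1.11 to 1.24 there, and their differences of 0.38 to 0.53 did not pass (adjusted p = 0.25 to 0.47). Among these 4, Otx2-205 holds no base of the terminal exon and had 1.21, and Otx2-207 holds 22 and had 1.13. The fold changes thus did not run in the order of the terminal exon bases held. In the Cre-Tat response the 8 transcripts lay between 1.16 and 1.71.

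**Figure D2:**
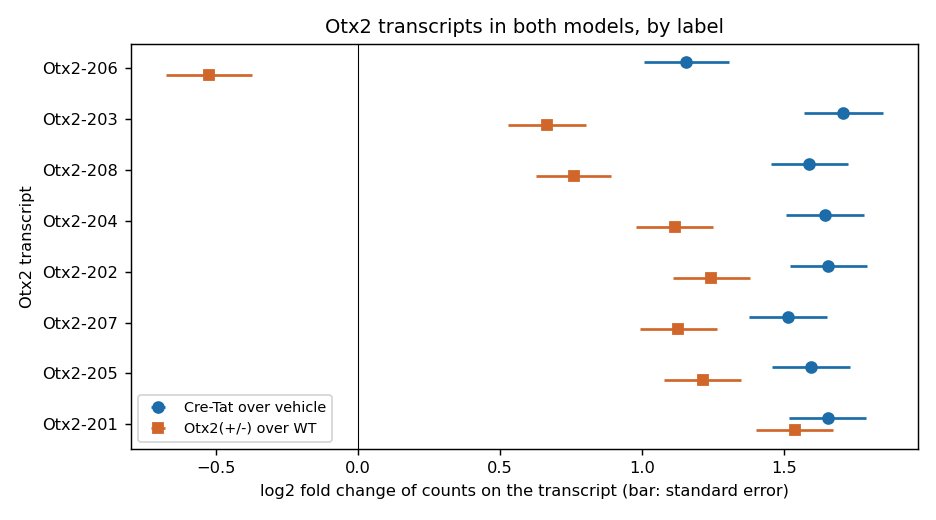
Log2 fold change of the counts on each of the 8 Otx2 transcripts, with bars for the standard error, between the pools labelled Cre-Tat and vehicle (circles) and those labelled Otx2 (+/-) and WT (squares). The circles lie between 1.16 and 1.71, while the squares run from -0.52 for Otx2-206 to 1.54 for Otx2-201.

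Secreted factors, which carry the signals of the ChP into the CSF, were named by the study on these samples, so that their directions are not independent evidence. Of 13 tested, 2 differed between the models, beside 1.61% of all genes, and the median difference was 0.03, beside 0.01 over all genes tested. Tgfa, a ligand of the EGF receptor, had 981 and 1259 normalized counts in the Cre-Tat pools, 1561 and 1523 with vehicle, 1678 and 1236 with the label Otx2 (+/-) and 845 and 982 in WT. Its Cre-Tat pools lay below vehicle and its Otx2 (+/-) pools above WT, with a log2 difference of -1.13 (standard error 0.23, adjusted p = 0.026). Wnt2b, a Wnt ligand, had 75.1 and 71.9 counts with Cre-Tat against 10.2 and 17.4 with vehicle, and 27.5 and 33.0 against 29.1 and 22.0 in the constitutive model. It rose in the Cre-Tat response alone, and the difference was 2.20 (standard error 0.50, adjusted p = 0.047).

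Several of the main products of the tissue fell in both models. Igf2, a growth factor of the CSF, changed by -1.23 and -1.32 on the log2 scale, with a difference of 0.09 (95% interval -0.37 to 0.55). Igfbp2, which binds insulin-like growth factors, changed by -1.11 and -1.15 (difference 0.03, interval -0.42 to 0.49). Sfrp1, an inhibitor of Wnt signalling, changed by -0.93 and -1.04 (difference 0.11, interval -0.49 to 0.72). For these 3 the interval leaves room for a difference of at most 0.72 in size.

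Ttr, the carrier of thyroid hormone and of the retinol-binding protein, is the most abundant of these transcripts. It had 1260700 and 1038400 normalized counts with Cre-Tat against 2882900 and 2379000 with vehicle, and 1299900 and 1517900 with Otx2 (+/-) against 2494300 and 2363200 in WT. The pools labelled as knockdown lay below their controls in both models, with log2 fold changes of -1.19 and -0.79, and the difference of -0.41 did not pass (interval -1.01 to 0.20). For the other members the models were not shown to differ: Bmp7, Tgm2, Sostdc1 and Tgfb2 changed in the Cre-Tat response alone, and their differences of 0.62, 0.87, -0.89 and -0.43 had adjusted p values of 0.081, 0.070, 0.067 and 0.31. Slit2 and Fgf2 passed in neither response. Areg did not pass the filter on low counts.

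Shh, the ligand of the hedgehog pathway, had no counts in either WT pool and 65.3 and 46.0 normalized counts in the pools labelled Otx2 (+/-), at least 20.2-fold higher than the limit of 3 counts per pool. In the conditional model it had 0.93 and 9.42 counts with Cre-Tat and 0 and 1.58 with vehicle. Shh thus passed in the heterozygote response (adjusted p = 0.00089), but its difference between the models could not be estimated well (standard error 3.24, adjusted p = 0.46). Among the 15 hedgehog genes tested, Hhip, which binds the ligand at the cell surface, and Cdon, a co-receptor, differed between the models. Hhip had 310 and 304 counts with Otx2 (+/-) against 56.4 and 62.1 in WT, while its Cre-Tat pools (71.4 and 71.9) lay within the range of vehicle (52.1 and 104). Its difference was -2.47 (standard error 0.37, adjusted p = 0.0050), and that of Cdon -0.92 (adjusted p = 0.037). Ptch1 and Gli1, named after their values were seen, passed in neither response, with differences of -0.46 and -0.28. Of the 15 genes, 3 were higher and 0 lower in each response, beside 4.53% and 2.41% of all genes higher with Cre-Tat and Otx2 (+/-). Those higher with Otx2 (+/-) were Shh, Hhip and Cdon. The 2 that passed on the difference stand beside 1.61% of all genes.

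Receptors and their ligands had 8 of 25 genes tested past the threshold on the difference, beside 1.61% of all genes, 5 below 0 and 3 above. The median difference of the list was -0.04, and with library totals as scaling it was 0.07. Trhr, the receptor of thyrotropin-releasing hormone (GRCm38 chromosome 15, 44196135 to 44235912), had 481 and 653 normalized counts in the pools labelled Otx2 (+/-) against 15 and 22.0 in WT, a 30.7-fold rise. The Cre-Tat pools had 74.1 and 59.1 and the vehicle pools 71.1 and 42.7. The pools labelled Otx2 (+/-) therefore stood above all others, and Cre-Tat overlapped vehicle. The log2 difference was -4.74 (standard error 0.41, adjusted p = 0.00021).

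Ednrb, an endothelin receptor (GRCm38 chromosome 14, 103814625 to 103844402), moved in opposite directions. It had 837 and 813 counts with Cre-Tat against 1782 and 1672 with vehicle, and 3465 and 3294 with Otx2 (+/-) against 1914 and 1505 in WT. Neither pair of groups overlapped, and the log2 fold changes of -1.07 and 0.98 gave a difference of -2.05 (standard error 0.19, adjusted p = 0.00021). Edn3, one of its ligands, rose in both models, by 2.59 and 1.43 (difference 1.16, adjusted p = 0.027).

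Ngfr, the low-affinity receptor of neurotrophins, had 181 and 175 counts with Cre-Tat against 831 and 723 with vehicle, and 343 and 287 with Otx2 (+/-) against 390 and 585 in WT. It lay lower under both knockdown labels but passed in the Cre-Tat response alone (log2 fold changes -2.13 and -0.63, difference -1.5, adjusted p = 0.013). Htr2c, the serotonin receptor typical of ChP epithelium, and Ghr, the growth hormone receptor, also fell in the Cre-Tat response alone, with differences of -0.95 (adjusted p = 0.024) and -0.88 (adjusted p = 0.016). Above 0 were Gpr176, an orphan receptor, and Adcy8, an adenylyl cyclase. Gpr176 had 230 and 241 counts with Cre-Tat and 35.6 and 22.2 with vehicle, and between 24.0 and 29.6 in the 4 constitutive pools. It rose with Cre-Tat only among the responses tested in 4V (difference 3.11, adjusted p = 0.0018). Adcy8 rose in both models, by 4.44 and 1.48 (difference 2.95, adjusted p = 0.015).

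Gfra1, the co-receptor of the neurotrophic factor GDNF, was among the 17 genes of opposite direction. It had 66.7 and 52.2 counts with Cre-Tat, 135 and 131 with vehicle, 1364 and 796 with Otx2 (+/-) and 339 and 284 in WT, in an order without overlap. The difference was -2.96 (standard error 0.35, adjusted p = 0.0012). Others of this class were Tll1, a protease of the extracellular matrix, with a difference of -2.61 (adjusted p = 0.0011), Angptl1, a secreted angiopoietin-like protein, with -1.87 (adjusted p = 0.0011), and Slc16a6, a monocarboxylate carrier, with -1.39 (adjusted p = 0.0023). Smaller differences were found for Pld5 (-1.38, adjusted p = 0.0012) and Smarca1, a chromatin remodeller (-1.30, adjusted p = 0.0036). Jam3, an adhesion molecule of cell junctions, was the only one of 20 tight junction genes past the threshold, beside 1.61% of all genes. It had 441 and 401 counts with Cre-Tat, 676 and 606 with vehicle, 1030 and 1028 with Otx2 (+/-) and 510 and 664 in WT. Its difference was -1.42 (adjusted p = 0.0037).

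A single gene, Rdh10, went the other way: it was higher with Cre-Tat and lower with Otx2 (+/-). Rdh10 is a retinol dehydrogenase of retinoic acid synthesis. It had 1301 and 1105 counts with Cre-Tat against 860 and 742 with vehicle, and 577 and 548 with Otx2 (+/-) against 1009 and 844 in WT. The difference was 1.30 (standard error 0.20, adjusted p = 0.0050). It was named after its value was seen, as the 1 gene of its kind.

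**Figure D3:**
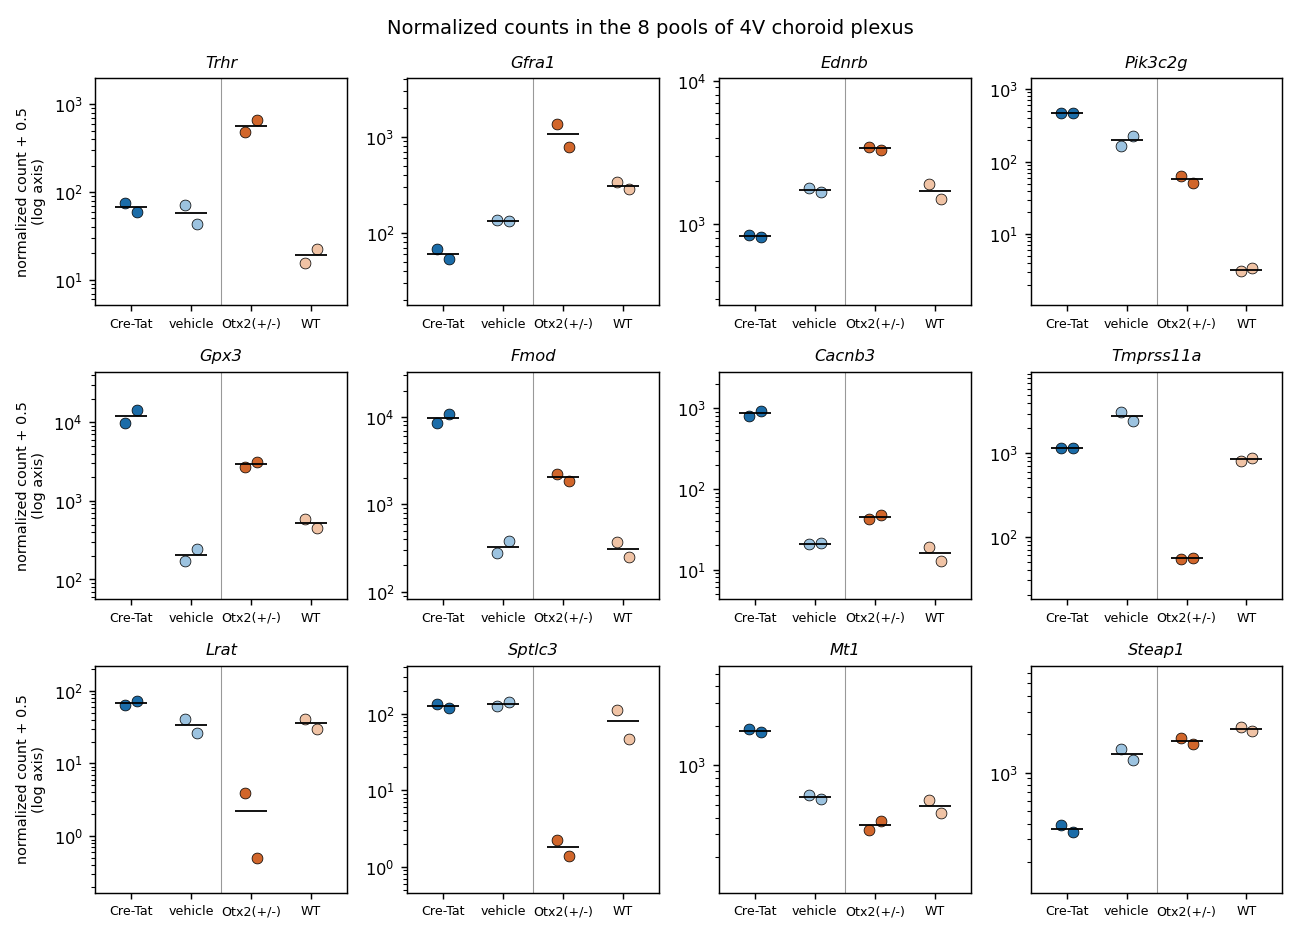
Normalized counts plus 0.5 on a log axis in each of the 8 pools (points) with the group mean (bar) for 12 genes; the conditional model is left of the grey line and the constitutive model right of it. Trhr is high in the Otx2 (+/-) pools, Gfra1 and Ednrb move in opposite directions, Gpx3, Fmod and Cacnb3 rise further with Cre-Tat, and Lrat and Sptlc3 are low in the Otx2 (+/-) pools alone.

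The largest differences below 0 were largely rises in the pools labelled Otx2 (+/-). Besides Trhr, Gfra1, Tll1 and Hhip, Sema3e, a guidance cue for axons and vessels, had 143 and 145 counts with Otx2 (+/-) against 19.4 and 30.6 in WT, and 73.2 and 65.1 with Cre-Tat against 90.2 and 109 with vehicle. Its difference was -3.05 (standard error 0.35, adjusted p = 0.0011). Kcng4, a modifier subunit of potassium channels, had 233 and 196 counts with Otx2 (+/-) against 45.8 and 39.2 in WT, and its conditional groups overlapped (difference -2.61, adjusted p = 0.0097). Bhmt, an enzyme of methionine synthesis, followed the same pattern (-2.26, adjusted p = 0.032).

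Pik3c2g, a lipid kinase, rose in both models, but from unequal floors. It had 469 and 466 counts with Cre-Tat against 165 and 228 with vehicle, and 63.5 and 50.3 with Otx2 (+/-) against 2.64 and 2.87 in WT, at least a 20.7-fold rise in the second model. The difference was -3.06 (adjusted p = 0.0052). Nat8f2 had 0.88 and 0 counts in WT and 17.2 and 26.9 with Otx2 (+/-), at least 8.00-fold higher (difference -4.27, adjusted p = 0.041). Spon1, a matrix protein, fell with Cre-Tat and rose with Otx2 (+/-), with a difference of -3.66 (adjusted p = 0.010). Tal2, a transcription factor, passed in the Cre-Tat response alone, at -1.66 against 1.47 (difference -3.13, adjusted p = 0.022). Gm14051, an antisense transcript, had a difference of -2.28 (adjusted p = 0.0017), and its reads cannot be told apart from those of an overlapping gene where strand was not used in counting.

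Among the largest differences above 0, 2 kinds of gene stood out, those raised with Cre-Tat and those nearly lost with Otx2 (+/-). Gpx3, the secreted glutathione peroxidase (GRCm38 chromosome 11, 54902453 to 54910377), rose in both models. It had 9766.5 and 14404 counts with Cre-Tat against 169 and 244 with vehicle, a 58.6-fold rise, and 2673 and 3127 with Otx2 (+/-) against 592 and 446 in WT, a 5.59-fold rise. No group overlapped its control, and the log2 difference was 3.40 (standard error 0.31, adjusted p = 0.00021). Cacnb3, a subunit of voltage-gated calcium channels, had 807 and 936 counts with Cre-Tat against 20.3 and 20.6 with vehicle, and 42.1 and 46.8 with Otx2 (+/-) against 18.5 and 12.4 in WT. Both responses passed, and the difference was 3.90 (standard error 0.38, adjusted p = 0.00033).

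Slc1a6, a glutamate carrier, had 166 and 113 counts with Cre-Tat against 3.81 and 14.2 with vehicle, and 1.72 to 7.64 in the constitutive pools (difference 5.36, adjusted p = 0.027). A730020M07Rik, a gene of unassigned function, had 76.9 and 93.3 counts with Cre-Tat and 1.27 and 1.58 with vehicle, at least 19.9-fold higher (difference 5.22, adjusted p = 0.0089). Igkc, the constant part of the kappa antibody chain, had 1096 and 210 counts with Cre-Tat, 39.4 and 69.7 with vehicle, and 5.21 to 43.0 in the constitutive pools. Its difference of 6.03 (adjusted p = 0.018) was the largest of the named genes that passed, and the 2 Cre-Tat pools themselves differed widely.

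Among these largest differences, the genes nearly lost with Otx2 (+/-) had no change called with Cre-Tat. A ranking by difference favours such genes. Sebox, at 2.58 and 2.60 counts with Otx2 (+/-) against 84.6 and 72.6 in WT, fell with Cre-Tat too (adjusted p = 0.0053). Sptlc3, a subunit of the enzyme that begins sphingolipid synthesis (GRCm38 chromosome 2, 139493913 to 139637674), had 133 and 118 counts with Cre-Tat and 126 and 139 with vehicle. It had 1.72 and 0.87 with Otx2 (+/-) against 111 and 45.9 in WT, at least 30.3-fold lower. Its difference was 5.72 (standard error 0.72, adjusted p = 0.0018). Chrnb4, a subunit of nicotinic acetylcholine receptors, had 2.58 and 0 counts with Otx2 (+/-) against 79.3 and 52.6 in WT, at least 25.5-fold lower, and 72.3 and 89.0 with Cre-Tat against 81.3 and 142 with vehicle (difference 5.09, adjusted p = 0.0050). For both genes the Cre-Tat change itself did not pass, with log2 values of -0.08 and -0.46.

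Baiap2l2, an actin-binding protein of microvilli, fell by 3.91 on the log2 scale with Otx2 (+/-) and had -0.19 with Cre-Tat (difference 3.72, adjusted p = 0.0021). 1500009C09Rik fell by 4.39 and had -0.58 with Cre-Tat (difference 3.81, adjusted p = 0.00047). Pon1, a lipoprotein-associated esterase, had 6.01 and 7.81 counts with Otx2 (+/-) against 76.6 and 89.8 in WT, and 97.3 and 77.9 with Cre-Tat against 99.1 and 87.1 with vehicle. The WT level was 12-fold that of the pools labelled Otx2 (+/-), while Cre-Tat overlapped vehicle, and the difference was 3.47 (standard error 0.41, adjusted p = 0.0011).

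Lrat esterifies retinol for storage, and had 3.43 and 0 counts with Otx2 (+/-) against 40.5 and 29.6 in WT, and 63.0 and 72.8 with Cre-Tat against 40.6 and 25.3 with vehicle. The Otx2 (+/-) pools were the lowest and the Cre-Tat pools the highest of the 8, and the difference was 5.28 (standard error 0.77, adjusted p = 0.0042). Rrh, an opsin of the retinal pigment epithelium, had 0.86 and 4.34 counts with Otx2 (+/-) against 142 and 120 in WT, and 29.7 and 53.9 with Cre-Tat against 61.0 and 80.7 with vehicle. The first change was a 50.5-fold fall and the second did not pass (difference 4.85, adjusted p = 0.0021). Stra6, the receptor that takes up retinol, fell in both models, by 1.06 and 1.35, and its difference of 0.29 did not pass (adjusted p = 0.60).

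A list of photoreceptor, pigment epithelium and pineal genes, tissues in which Otx2 also acts, had 16 genes tested and does not hold Rrh or Lrat. Of these 16 only Tyrp1, an enzyme of melanin synthesis, passed on the difference, beside 1.61% of all genes. It had 40.4 and 28.6 counts with Otx2 (+/-) against 4.40 and 3.82 in WT, and 8.34 and 4.28 with Cre-Tat against 16.5 and 12.7 with vehicle (difference -4.25, adjusted p = 0.015). Rpe65, the retinoid isomerase, was among the genes that rose most in both models. It had 27.8 and 24.0 counts with Cre-Tat against 2.54 and 0 with vehicle, and 8.59 and 15.6 with Otx2 (+/-) against 1.76 and 0 in WT, at least 6.05-fold and at least 4.39-fold higher.

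The promoters of these genes were searched for TAATCC, the core bound by OTX-class homeodomains, on either strand of the 250 bases before and 50 bases after the start in RefSeq (GRCm38.p6). Of the 24 genes with the largest differences 20 matched, and 3 of their 28 windows held it (10.7%); of the 12 largest shared changes 9 matched, with 1 of 11 windows (9.09%). It was in 7.06% of all 32851 windows of the table, in 5.94% of those of the genes tested here and in 5.91% of those of the genes past the threshold on the difference. Pon1, which fell in the heterozygote response alone, and Rpe65, which rose in both, are shown as the esterase and the retinoid gene described above whose windows held the core. The 250 bases before the start are printed, in the direction of the gene, with the core in capitals; the core is a match of letters, and binding was not measured.
Pon1 (minus strand, chr6:5193947-5194196): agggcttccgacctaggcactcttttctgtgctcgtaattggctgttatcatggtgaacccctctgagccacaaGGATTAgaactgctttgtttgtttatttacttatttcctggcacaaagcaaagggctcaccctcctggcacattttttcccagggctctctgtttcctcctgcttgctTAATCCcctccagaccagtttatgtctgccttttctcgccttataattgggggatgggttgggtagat
Rpe65 (plus strand, chr3:159598931-159599180): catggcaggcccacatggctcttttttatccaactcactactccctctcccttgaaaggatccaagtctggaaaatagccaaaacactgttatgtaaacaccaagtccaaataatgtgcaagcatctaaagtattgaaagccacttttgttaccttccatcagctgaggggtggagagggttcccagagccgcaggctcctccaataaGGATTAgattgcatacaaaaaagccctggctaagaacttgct

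Genes that the study lists as higher in both models, chosen on these samples, had a median log2 fold change of 1.77 in the Cre-Tat response and 1.33 in the heterozygote response. Of 41 tested, 10 differed between the models, 9 above 0 and 1 below, beside 1.61% of all genes, and the median difference was 0.47. Fmod, fibromodulin, a proteoglycan that binds collagen, had 8621 and 10846 counts with Cre-Tat against 276 and 375 with vehicle, and 2202 and 1863 with Otx2 (+/-) against 366 and 247 in WT. The rises of 29.9-fold and 6.64-fold gave a log2 difference of 2.18 (standard error 0.28, adjusted p = 0.0021). Ndnf, a secreted neurotrophic factor, rose by 4.62 and 2.93 (difference 1.68, adjusted p = 0.0023), Vim, the intermediate filament vimentin, by 2.14 and 0.70 (1.44, adjusted p = 0.0021), and Cd55, a membrane inhibitor of complement, by 1.95 and 0.63 (1.32, adjusted p = 0.0018). Lrrc18 was the exception, with rises of 0.70 and 2.10 (difference -1.40, adjusted p = 0.023).

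In other members the models were not shown to differ. Megf11, an EGF-repeat membrane protein, rose by 3.48 and 3.66, with a difference of -0.18 (95% interval -1.08 to 0.71). Mup5, a major urinary protein, had 1436 and 916 counts with Cre-Tat against 34.3 and 23.7 with vehicle, and 86.7 and 108 with Otx2 (+/-) against 3.52 and 4.78 in WT. The levels differed widely between the models, but the log2 rises were 5.31 and 4.52 (difference 0.79, interval -0.74 to 2.32). Reads of Mup5 may be shared with near-identical Mup genes. Sncg rose by 3.56 and 2.23, and its difference of 1.33 did not pass (adjusted p = 0.17), with an interval of 0.42 to 2.25. Shisal1 did not pass either (adjusted p = 0.89). Olfm4 and Slc25a34, which are not on the list, also rose in both models without passing on the difference (adjusted p = 0.93 and 0.97).

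Genes listed by the study as lower in both models, chosen on these samples too, had medians of -1.08 and -1.02. Otx2 is on this list and was its only member that rose. Of 34 tested, 4 differed between the models, beside 1.61% of all genes, each with the larger fall in the heterozygote response. Tmprss11a, a membrane serine protease (GRCm38 chromosome 5, 86410410 to 86468990), had 1148 and 1147 counts with Cre-Tat against 3138 and 2479 with vehicle, and 53.2 and 55.5 with Otx2 (+/-) against 809 and 890 in WT. Its control was 2.45-fold and 15.6-fold higher, and the difference was 2.67 (standard error 0.21, adjusted p = 0.00017). Myo5b, a motor of membrane recycling, fell by 1.04 and 2.01 (difference 0.98, adjusted p = 0.016), Slc35f1 by 0.97 and 2.46 (1.5, adjusted p = 0.018) and Pitpnm1, a lipid transfer protein, by 0.72 and 1.56 (0.84, adjusted p = 0.022). Among the largest falls shared by both models, Elfn1, B3galt2, Zfp57 and Nyap2 had differences between -0.31 and 0.71, none past the threshold. Sebox and Arr3 also fell in both, and their differences of 2.55 and 3.20 did not pass (adjusted p = 0.11 and 0.46).

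Carriers of nutrients, hormones and metals had 7 of 35 genes past the threshold on the difference, beside 1.61% of all genes, 4 above 0 and 3 below, with a median difference of -0.24. In the Cre-Tat response 18 of the 35 fell and 3 rose, beside 4.3% and 4.53% of all genes. In the heterozygote response 10 fell and 1 rose, beside 2.23% and 2.41%. Steap1, a metalloreductase, had 386 and 344 counts with Cre-Tat against 1525 and 1257 with vehicle, and 1859 and 1680 with Otx2 (+/-) against 2271 and 2104 in WT. It fell with Cre-Tat, and its change of -0.31 with Otx2 (+/-) did not pass (difference -1.63, standard error 0.19, adjusted p = 0.0011). Steap2, of the same family, followed with a difference of -1.64 (adjusted p = 0.0052), as did Slco1c1, a thyroid hormone carrier (-1.05, adjusted p = 0.028). Slc16a8, a lactate carrier, fell in both models but further with Otx2 (+/-). It had 40.4 and 91.1 counts against 539 and 607 in WT, and 410 and 361 with Cre-Tat against 1116 and 736 with vehicle (difference 1.85, adjusted p = 0.024). Cp, the copper oxidase ceruloplasmin, rose with Cre-Tat alone (0.97, adjusted p = 0.032).

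For ion and water transport, the machinery of CSF secretion, 14 of 36 genes fell and 4 rose in the Cre-Tat response, beside 4.3% and 4.53% of all genes. In the heterozygote response 4 fell and 2 rose, beside 2.23% and 2.41%. The median difference was -0.27, and 3 genes differed, all below 0, beside 0.829% of all genes. Kcne2, a potassium channel subunit of the apical membrane, had 9247 and 7715 counts with Cre-Tat against 19806 and 14727 with vehicle, and 22961 and 24641 with Otx2 (+/-) against 21580 and 22422 in WT. The Cre-Tat pools were the lowest of the 8, and the difference was -1.14 (standard error 0.22, adjusted p = 0.023). Atp2b3, a calcium pump, and Trpm3, a cation channel, had differences of -0.99 (adjusted p = 0.024) and -0.97 (adjusted p = 0.040), likewise with no change called in the heterozygote response.

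Markers of the epithelium were also lower in the Cre-Tat pools, and 4 of them (Aqp1, Clic6, Kcne2 and Kcnj13) are on the transport list themselves, so that the sets are not independent. The summed level of the markers was 1537000 to 1727300 normalized counts in the Cre-Tat pools against 3228600 to 3802500 with vehicle, and 2187600 to 2290900 with Otx2 (+/-) against 3251500 to 3418200 in WT, much of it Ttr. Of 13 markers, 10 fell and 1, Otx2 itself, rose with Cre-Tat, beside 4.3% and 4.53% of all genes. With Otx2 (+/-) 3 fell and 1 rose, beside 2.23% and 2.41%. On the difference 2 passed, Kcne2 and Htr2c, beside 1.61%. In pooled tissue, fewer cells of a type and less RNA per cell cannot be told apart. Markers of endothelium, mural cells and fibroblasts were higher in all constitutive pools than in all conditional ones, with endothelial sums of 5350 to 6288 and 2209 to 2535, which the design does not separate from run and strain. Pdgfra, a fibroblast receptor, and Plvap, of fenestrated endothelium, passed on the difference (-1.12, adjusted p = 0.0038, and 1.16, adjusted p = 0.046).

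Several immune genes rose in the Cre-Tat response. MHC class II genes, which present antigen, had 5 of 9 tested higher with Cre-Tat, beside 4.53% of all genes. With Otx2 (+/-) 0 were called by edgeR or DESeq2, and 2 had an unadjusted p under 0.05 by edgeR. Of all genes 2.41% were higher and 2.23% lower there by edgeR. The medians were 1.22 and 0.05, and 3 passed on the difference, beside 1.61% of all genes. H2-Aa had 1328 and 969 counts with Cre-Tat against 500.3 and 484 with vehicle, and between 400.4 and 513 in the constitutive pools. Its difference was 1.17 (standard error 0.24, adjusted p = 0.024), beside 1.27 for H2-Ab1 (adjusted p = 0.038) and 1.28 for Cd74 (adjusted p = 0.024). Unlike those of H2-Aa, the vehicle pools of H2-Ab1 (462 and 659) and Cd74 (505 and 571) lay below all constitutive pools. The constitutive pools had 717 to 792 counts of H2-Ab1 and 757 to 953 of Cd74, and the Cre-Tat pools lay above them. C1qa, a subunit of the first complement component, had a difference of 1.20 (adjusted p = 0.044), and Iigp1, a GTPase induced by interferon, 2.35 (adjusted p = 0.040). For both the vehicle pools were the lowest. C1qa had 349 and 230 counts with Cre-Tat, 171 and 154 with vehicle, and 355 to 506 in the constitutive pools, all above Cre-Tat. Iigp1 had 244 and 375 with Cre-Tat, 22.9 and 77.6 with vehicle, and 157 to 283 in the constitutive pools. Iigp1 was the only one of 42 interferon-inducible genes past the threshold on the difference, beside 1.61% of all genes. Of the 42, 8 rose with Cre-Tat, beside 4.53% of all genes, and 2 rose and 1 fell with Otx2 (+/-), beside 2.41% and 2.23%.

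Markers of immune cells moved with these genes. Macrophage and microglia markers summed to 1543 to 2109 counts with Cre-Tat and 996 to 998 with vehicle. With Otx2 (+/-) they summed to 1776 to 1916, against 1507 to 1577 in WT. Of 10 markers, 5 rose with Cre-Tat and 1 with Otx2 (+/-), beside 4.53% and 2.41% of all genes. Ptprc, the common leukocyte antigen, passed on the difference (1.25, adjusted p = 0.037). Lymphocyte markers, 4 of 10 tested, summed to 289 to 1252 with Cre-Tat, where Igkc made up most, against 66.0 to 120 with vehicle and 55.8 to 104 in the constitutive pools. Cd6 and Cd79a were at 3 counts or fewer in every pool. The part of these cells in the result was not tested.

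Metallothioneins, which bind zinc and copper and answer to metals and stress, rose with Cre-Tat alone. Mt1 had 1906 and 1781 counts with Cre-Tat against 597 and 556 with vehicle, and 320.3 and 377 with Otx2 (+/-) against 548 and 434 in WT. The Otx2 (+/-) pools lay below WT without passing (adjusted p = 0.076), and the difference was 2.17 (standard error 0.20, adjusted p = 0.00021). Mt2 had a difference of 2.54 (adjusted p = 0.0029). With Gpx3 they were the 3 of 38 glutathione and antioxidant genes past the threshold on the difference, beside 1.61% of all genes. Ptgds, prostaglandin D2 synthase, which also carries lipids in the CSF, had 17065 and 15618 counts with Cre-Tat against 5534 and 3524 with vehicle, and 3933 to 4523 in the constitutive pools (difference 1.84, adjusted p = 0.0031).

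Motile cilia genes, 57 tested, had 11 higher with Cre-Tat, beside 4.53% of all genes, and with library totals as scaling 18 were called. With Otx2 (+/-) 2 were higher and 1 lower, beside 2.41% and 2.23%. On the difference 2 passed, beside 1.61%. Foxj1, the master regulator of motile cilia, had 3063 and 3211 counts with Cre-Tat against 1740 and 1463 with vehicle, and 2335 and 2956 with Otx2 (+/-) against 2765 and 3105 in WT. Its difference was 1.12 (adjusted p = 0.015), and that of Ccdc40, a factor of axoneme assembly, 1.74 (adjusted p = 0.011). Ependymal markers, Foxj1 among them, summed to 5166 to 5657 with Cre-Tat and 2772 to 3532 with vehicle, and 4379 to 5276 with Otx2 (+/-) and 4532 to 4952 in WT, and their part was not tested.

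In the matrix, 4 of 35 collagen genes differed, all below 0, beside 0.829% of all genes: Col14a1 (-1.05, adjusted p = 0.013), Col4a6 (-1.29, adjusted p = 0.019), Col8a2 (-0.82, adjusted p = 0.030) and Col5a2 (-1.11, adjusted p = 0.041), each lower with Cre-Tat and not called with Otx2 (+/-). With library totals as scaling 2 collagen genes passed on the difference. Fibroblast and meningeal markers, of which 3 are collagens of the list, summed to 17498 to 19366 counts with Otx2 (+/-) against 12703 to 13866 in WT, and to 7650.3 to 8527 with Cre-Tat against 8704 to 9030 with vehicle. Of 8 markers, 3 rose with Otx2 (+/-), beside 2.41% of all genes, and 1 rose and 1 fell with Cre-Tat, beside 4.53% and 4.3%. The median difference of these markers was -0.64. Their part in the result was not tested. Of 11 small leucine-rich proteoglycans, Prelp followed Fmod above 0 (1.09, adjusted p = 0.033), while Bgn lay below (-0.76, adjusted p = 0.042). In signalling, Bmp6, a ligand, fell further with Otx2 (+/-) (-0.73 and -1.45, difference 0.72, adjusted p = 0.048). Its receptor subunit Bmpr1b had a difference of -1.59 (adjusted p = 0.041), and the Wnt receptor Fzd4 one of -0.88 (adjusted p = 0.022). On the difference 2 of 27 BMP and TGF-beta genes and 2 of 35 Wnt genes passed. Among 28 patterning factors Msx1 alone passed, with 0.92 (adjusted p = 0.046), and among 20 immediate early genes Jund alone, with 0.81 (adjusted p = 0.034). Cers6, a ceramide synthase, was the second of 20 sphingolipid genes to pass, with -1.12 (adjusted p = 0.024). The counts of these lists stand beside 1.61% of all genes, and none was tested as a set.

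**Figure D4:**
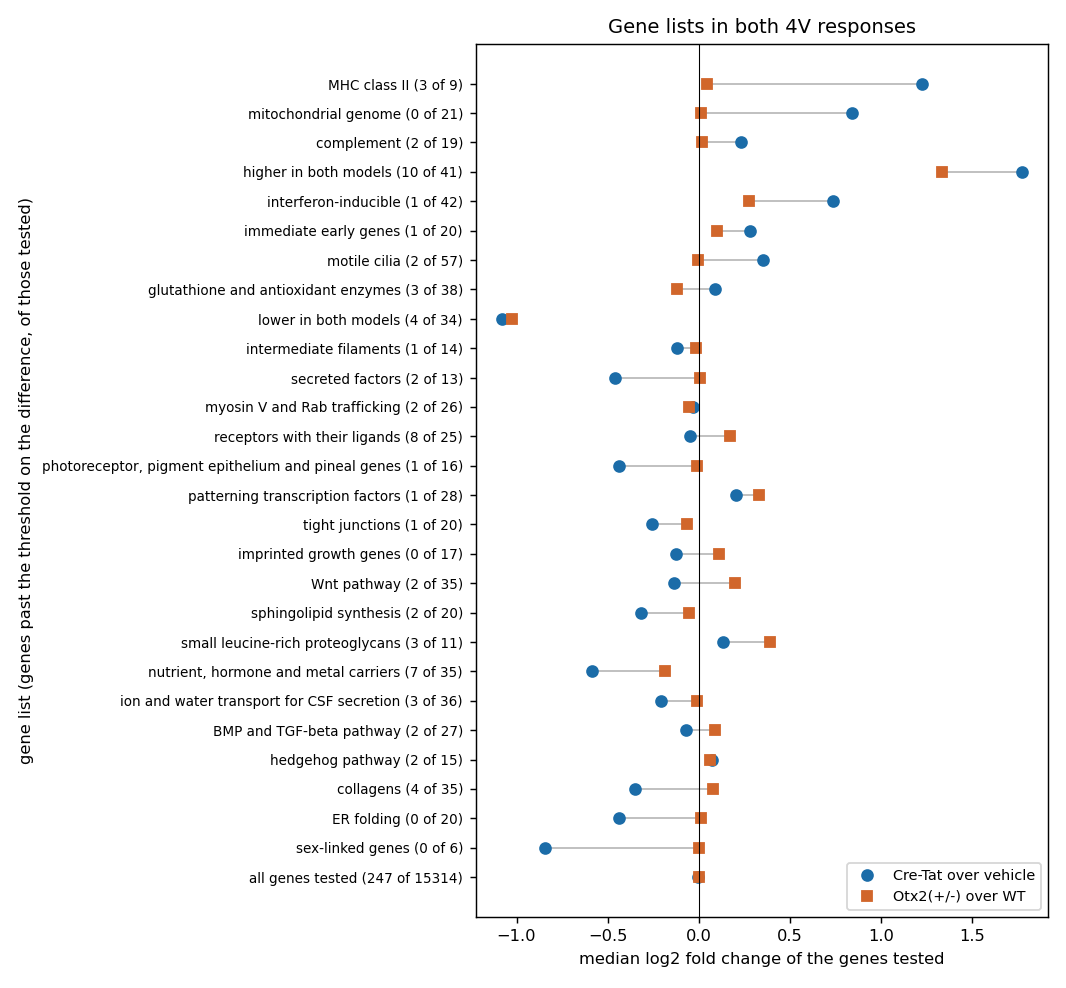
Median log2 fold change of the genes tested in each list, between the pools labelled Cre-Tat and vehicle (circles) and those labelled Otx2 (+/-) and WT (squares), ordered by the median difference, with the number past the threshold on the difference. MHC class II genes lie at 1.22 and 0.05, and the lists of the study for both models lie far from 0 in both.

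No gene of 4 lists passed on the difference: imprinted growth genes, folding genes of the endoplasmic reticulum, genes of the mitochondrial genome and sex-linked genes. The folding list holds chaperones and also transcription factors such as Atf4. Mest and H19 had the smallest p among imprinted growth genes, with adjusted p values of 0.14 and 0.30. For the folding list 19 of 20 differences were below 0 with a median of -0.42. For the mitochondrial genome 19 of 21 were above 0 with a median of 0.91, where 7 genes had passed in the Cre-Tat response. At an unadjusted p of 0.05, edgeR had 2 of 17 imprinted genes, 3 of 20 folding genes, 10 of 21 mitochondrial genes and 0 of 6 sex-linked genes on the difference. DESeq2 called 3 mitochondrial genes and 0 in the other lists.

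The genes that responded to Cre-Tat alone in 4V were then read in the lateral ventricle (LV), whose pools enter none of the tests above but may come from the same mice. In LV 486 of 14990 genes tested (3.24%) passed between the pools labelled Cre-Tat and vehicle, 2.21% higher and 1.03% lower. Of the 63 genes of the Cre-Tat response alone with a difference above 0, 46 passed in LV in the same direction, and of the 61 below 0, 27 did. Of the 72 genes of the heterozygote response alone, 4 passed in LV. The genes called with Cre-Tat in 4V were chosen for that response, and LV shares its injection. Median log2 fold changes in LV were 0.96 and -0.65 for the first 2 sets, beside 1.43 and -0.91 in 4V.

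Single genes of that set did not follow. Gpr176, at 3.0 in 4V, had -0.06 in LV (adjusted p = 0.98), and C1qtnf3, an adipokine named after its value was seen, had 4.01 in 4V and -0.55 in LV (adjusted p = 0.89). Igkc, in contrast, had 3.6 and 3.72, and Ngfr -2.13 and -2.41.

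**Figure D5:**
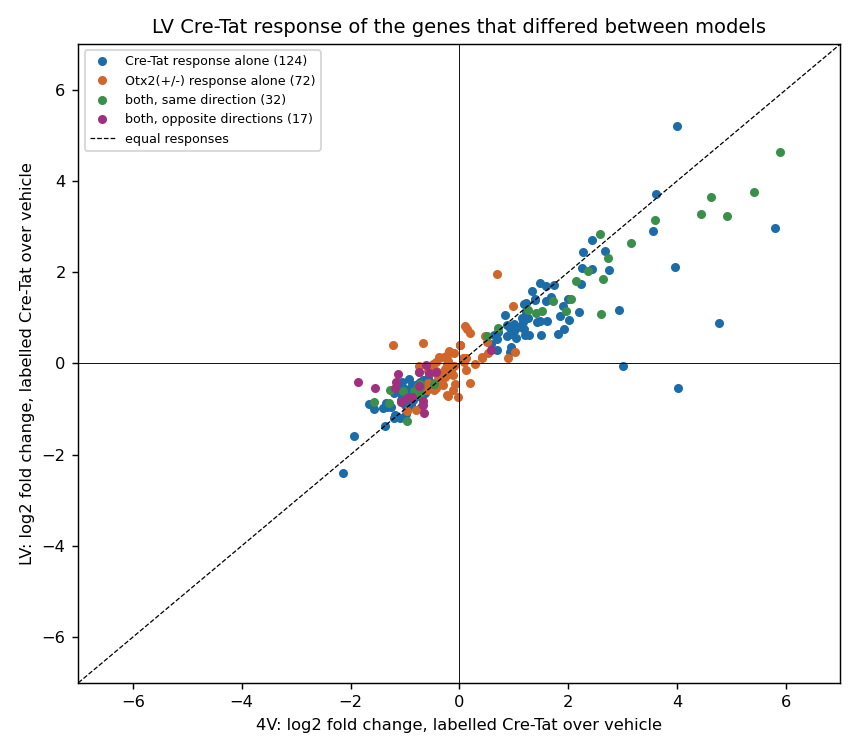
Log2 fold change between the pools labelled Cre-Tat and vehicle in 4V (x axis) and LV (y axis) for 245 of the 247 genes that differed between the models, coloured by response; the dashed line marks equal responses. Genes of the Cre-Tat response alone with a difference above 0 had medians of 1.43 in 4V and 0.96 in LV. Those with a difference below 0 had -0.91 and -0.65. Genes of the heterozygote response alone had a median of -0.15 in LV.

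By position, 3 of 158 genes within 10 Mb of Otx2 differed between the models (1.90%, beside 1.61% of all genes), namely Armh4 (-1.09, adjusted p = 0.016), Lgals3 (1.62, adjusted p = 0.022) and Myh7 (-0.92, adjusted p = 0.048). On the X chromosome 20 of 621 did (3.22%), 14 below 0. Without Cre-Tat pool B, which was lowest of the conditional pools in Y transcripts, all 20 kept their direction and 9 their call. By kind of gene, 242 of the 247 were protein-coding, as were 13589 of the 15314 genes tested. Of the protein-coding genes 1.78% passed, beside 1.61% of all genes.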

How the data were processed

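RNA of pooled ChP was sequenced by the authors, and the deposited files hold whole-number read counts per Ensembl transcript, with no normalization. The submitters' processing notes name Bowtie 0.12.9, HTSeq 0.5.3, DESeq 1.8.3, bcl2fastq 1.8.4 and mm10; the strand setting of the counting is not given in the sources used here. The labels name ribosomal RNA removal and the study's methods polyA selection, and which was used could not be settled. In the conditional model, 14 of 16 files carry a name whose library number is not that of the sample they are attached to; the number in the name was followed, and the 2 runs of a library, which agreed within sampling noise, were summed.

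Of 95533 transcripts, 12726 had no match in the annotation used, and the matched ones held 89.5% of the counts. Each gene was represented by its transcript of highest total count. Total counts per pool were 22750019 to 42182219. Counts of the 8 pools were filtered (filterByExpr), scaled by TMM and fitted in 1 model with edgeR 4.0.16 (quasi-likelihood test, R 4.3.3), p values adjusted by Benjamini-Hochberg across the genes tested, and a threshold of 0.05. The fit was tested on simulated data. A fold against pools at 3 counts or fewer was taken against 3 counts per pool and is a lower bound.

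Members and lists were chosen with earlier results of these data known. Named were Otx2, the 12 largest differences in each direction with a mean of at least 20 normalized counts, up to 5 list members past the threshold by p (or the 2 with the smallest p where fewer than 2 passed), all secreted factors, the 6 largest shared changes in each direction, up to 8 genes of opposite direction, and up to 8 within 10 Mb of Otx2. Rdh10, Stra6, C1qtnf3, Ptch1, Gli1 and the cell markers named beside a sum were chosen after their values were seen. Alternatives were DESeq2 1.42.0, other scalings and filters, transcripts summed per gene, a block for the pool letter, all 14 pools, equal depth, files as attached and each pool left out.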

Additional observations from a re-analysis of the deposited data

Results flagged for a closer look

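The response differed between the models, by the test of the difference itself, for 247 genes. Toward higher in the pools labelled Otx2 (+/-), the log2 differences were -4.74 for Trhr, -4.27 for Nat8f2, -3.66 for Spon1, -3.13 for Tal2, -3.06 for Pik3c2g, -3.05 for Sema3e and -2.96 for Gfra1. They were -2.61 for both Tll1 and Kcng4, -2.47 for Hhip, -2.28 for Gm14051, -2.26 for Bhmt and -2.05 for Ednrb. Tyrp1 had -4.25. Among genes of opposite direction, Angptl1 had -1.87, Slc16a6 -1.39, Pld5 -1.38 and Smarca1 -1.30.

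Toward higher in the Cre-Tat response, the differences were 6.03 for Igkc, 5.72 for Sptlc3, 5.36 for Slc1a6, 5.28 for Lrat, 5.22 for A730020M07Rik, 5.09 for Chrnb4 and 4.85 for Rrh. They were 3.90 for Cacnb3, 3.81 for 1500009C09Rik, 3.72 for Baiap2l2, 3.47 for Pon1 and 3.40 for Gpx3. Of the Otx2 transcripts, Otx2-206 had 1.68, Otx2-203 1.04 and Otx2-208 0.83. Groups of 2 pools are too small to test a single pool as far from the others.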

How the results depend on the processing

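All 247 genes kept their direction under every alternative that took the files by library number, but not their call. With the counts of a gene's transcripts summed, 166 genes passed, and 157 of the 247 were among them, while 22 of 76 named calls were lost. The count on the difference was 374 by DESeq2's Wald test and 626 with no filter on low counts. With no filter it was 1230 between Otx2 (+/-) and WT, 872 in LV and 485 for genes shared in the same direction. With files as attached to the samples it was 4681 on the difference, 4836 for Cre-Tat and 2018 for Otx2 (+/-). With a block for the pool letter it was 1043, 2567 and 2055, and 789 shared; the letters are not shown to pair the pools, since there are only 2 pairs per model, with correlations of 0.11 and 0.30 between same-letter pools. Leaving out 1 pool gave 80 to 246 genes on the difference, lowest without vehicle B (80), vehicle A (83), WT B (139), Otx2 (+/-) A (159) and WT A (160). It gave 420 to 1416 for Cre-Tat (420 without vehicle A, 679 without vehicle B, 818 without Cre-Tat B, 879 without Cre-Tat A). For Otx2 (+/-) it gave 336 to 737 (336 without WT A, 346 without Otx2 (+/-) A, 417 without WT B), and 122 to 250 shared genes. The setting with files as attached, whose reversed genes are listed below, sums runs of different library numbers into 1 pool. Between the 2 files of a library number the chi-square per degree of freedom was 1.00 to 1.03. Between files attached to the same pool it was 13.2 to 20.5. The causes of the other changes were not tested.

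With files as attached, these log2 differences reversed: A730020M07Rik -1.72, Adcy8 -2.84, Atp2b3 0.15, Bgn 0.19, Cacnb3 -3.65, Ccdc40 -1.73, Cd55 -1.09, Col14a1 0.39, Col8a2 0.17, Fmod -3.43, Foxj1 -0.22, Gm14051 0.022, Gpr176 -1.72, Gpx3 -3.83, Iigp1 -0.32, Mt2 -0.67, Myh7 1.14, Ndnf -4.86, Prelp -0.85, Ptgds -0.22, Slc16a6 0.26, Steap1 1.10, Tal2 1.15, Vim -0.98 and Wnt2b -1.24.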
